A study of Mus musculus with 6 samples.

Results

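The 6 genes followed here encode receptors for steroid hormones. They were measured through the uteri of 12-month-old CD-1 mice, and are the estrogen receptors Esr1, Esr2 and Gper1, the progesterone receptor Pgr, the glucocorticoid receptor Nr3c1 and the mineralocorticoid receptor Nr3c2. They were chosen by name. All 6 were rows of the single-cell table of 24077 genes and of the section tables of 30828 genes. Female pups had received corn oil (CO), the vehicle, or diethylstilbestrol (DES) at 1 mg/kg/day by injection under the skin on days 1 to 5 after birth. Single-cell RNA came from 1 CO library, which pooled the uterine horns of 2 mice, and 1 DES library, which pooled those of 4 mice. Spatial RNA came from 2 CO sections (CO A and CO B) and 2 DES sections (DES A and DES B), with 1 mouse per section and the 4 sections on 1 slide. Sections were lettered after their titles, which name 1 section of each group B. Other labels of the CO sections carry the opposite letters, while the number of spots in each section matches the study's own lettering. CO mice were in estrus and DES mice in persistent estrus, so that effects of the treatment and of persistent rather than cyclic estrus cannot be told apart. The study also examined DES tissue for uterine adenocarcinoma before choosing sections, so that treatment and the presence of cancer cannot be told apart there.

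Esr1 encodes ERα, the estrogen receptor through which DES, a synthetic estrogen, and estradiol act in the uterus. The receptors encoded by Esr1, Esr2, Pgr, Nr3c1 and Nr3c2 are transcription factors that bind DNA once they hold their hormone, and they share chaperones and coregulators. Gper1 is a membrane receptor coupled to G proteins and not a member of that family. Pgr is a classical target of ERα, and in the adult uterus estrogen is known to raise it in stroma and muscle and to lower it in luminal epithelium.

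In the GENCODE M21 annotation of GRCm38 (mm10), Esr1 spans chromosome 10 from 4611593 to 5005614 on the plus strand and Pgr chromosome 9 from 8899833 to 8968611, also on the plus strand. Esr2 lies on the minus strand of chromosome 12 (76120419 to 76177259), Nr3c2 on the plus strand of chromosome 8 (76899442 to 77245012) and Gper1 on the plus strand of chromosome 5 (139423151 to 139427800). Nr3c1 lies on the minus strand of chromosome 18. Genes annotated within the span of a member on the same strand were limited to Gm7862, a pseudogene inside Esr2, and Gm23260, a small nuclear RNA inside Nr3c2.

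Unique molecular identifiers (UMIs) each stand for 1 captured RNA molecule. The median cell had 6779 UMIs in the CO library (32387 cells) and 10153.5 in the DES library (16312 cells). Both libraries listed 180 cell barcodes in common, which fell on 13 CO and 43 DES non-basal epithelial cells. The sections held 9117099 to 12506177 UMIs over 1357 to 1834 spots. The DES library contained 1 stromal cell, 5 endothelial cells and no myocytes or pericytes, so that DES and CO were set side by side in single cells for epithelial, mesothelial and immune cells only. Cells labelled Mesothelial carried 2103 (CO) and 2210 (DES) UMIs per 1000000 UMIs (CPM) of 3 mesothelial markers, against 49.8 in CO stromal cells. The same cells carried 17796 and 19031 CPM of 5 stromal markers, more than the 11622 CPM of the CO cells labelled Stromal. Levels below are UMIs summed over the cells or spots of a group as CPM, with exact Poisson 95% intervals that cover counting error only. Such counts tag 1 end of each transcript and are not divided by gene length, and levels are therefore compared within a gene and not between genes.

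Esr1 was detected across most cell types of the CO uterus. Its level was 289 CPM (236 to 351) in pericytes, 275 CPM (245 to 308) in myocytes, 233 CPM (225 to 242) in stromal cells, 227 CPM (224 to 230) in epithelial cells and 224 CPM (207 to 243) in the cells the authors labelled Ctla2a. Pericytes and myocytes had overlapping intervals, as did stromal, epithelial and Ctla2a cells, while the intervals of myocytes and stromal cells were separate. Mesothelial cells followed with 171 CPM (168 to 173). Immune and endothelial cells, which are not known as main sites of uterine ERα, held 94.1 CPM in cells labelled Myeloid (67 cells), 44.0 CPM in lymphocytes (35.8 to 53.6) and 32.7 CPM in endothelial cells (26.2 to 40.4). The CO cells labelled Myeloid carried 4348 CPM of stromal and 2906 CPM of myeloid markers (215 and 9557 CPM in DES), so that 94.1 CPM is the level of a mixed group. The DES library held 216 CPM (214 to 218) in all epithelial cells, 164 CPM (160 to 167) in mesothelial cells and 26.2 CPM in lymphocytes. Its cells labelled Myeloid held 19.1 CPM. A separate label, DES-Myeloid-Lyz2hi (136 cells, 33007 CPM of myeloid markers), held 39.9 CPM. Epithelial cells thus stood above mesothelial cells and both above immune cells in each library.

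Pgr had a steeper pattern. CO stromal cells held 435 CPM (424 to 447), the highest of the types with at least 50 cells, followed by 256 CPM (227 to 288) in myocytes, 204 CPM (188 to 221) in Ctla2a cells and 173 CPM (132 to 222) in pericytes, the last 2 of which had overlapping intervals. Epithelial cells held 75.9 CPM (74.0 to 77.8). Lymphocytes (25.8 CPM), endothelial cells (20.9 CPM) and myeloid cells (16.2 CPM) had overlapping intervals. Mesothelial cells were at 12.2 CPM (11.4 to 12.95), inside the interval of myeloid cells. DES epithelial cells held 94.7 CPM (93.3 to 96.2), while DES lymphocytes held 8.73 CPM and mesothelial cells 3.14 CPM (2.73 to 3.61). DES cells labelled DES-Myeloid-Lyz2hi held 5.84 CPM and those labelled Myeloid 2.94 CPM.

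Nr3c1, which mediates the response to glucocorticoids in most tissues, had another order. It was highest in CO endothelial cells at 177 CPM (162 to 194) and in pericytes at 119 CPM (85.9 to 161). Mesothelial cells (93.2 CPM), myeloid cells (90.9 CPM) and lymphocytes (80.5 CPM) came next, then myocytes (52.0 CPM), stromal cells (50.1 CPM) and Ctla2a cells (39.1 CPM), and CO epithelial cells had the lowest level at 17.7 CPM (16.7 to 18.6). In DES cells Nr3c1 was at 119 CPM (102 to 138) in lymphocytes and 94.3 CPM in mesothelial cells. It was at 65.1 CPM in cells labelled DES-Myeloid-Lyz2hi and 39.7 CPM in those labelled Myeloid. All DES epithelial cells held 21.8 CPM (21.1 to 22.5), again the lowest.

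Nr3c2, the aldosterone receptor, was sparse in every cell type. CO endothelial cells held 7.61 CPM (20 UMIs, interval 4.65 to 11.7), CO mesothelial cells 2.65 CPM (2.31 to 3.02) and CO epithelial cells 1.00 CPM (0.794 to 1.25). None of the 1326 CO stromal cells had an Nr3c2 UMI, which allows a level of up to 0.256 CPM at 3 counts.

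Most UMIs of Esr2 and Gper1 lay in epithelial cells or in cells without a cell type label. The CO library held 25 Esr2 UMIs in all, 13 of them in epithelial and 11 in unlabelled cells, and the DES library 261, of which 221 lay in non-basal epithelial cells. For Gper1 there were 105 UMIs in the CO library and 581 in the DES library, 518 of these in non-basal epithelial cells. Among the 3837 DES mesothelial cells there were 1 Esr2 UMI and 5 Gper1 UMIs.

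**Figure D1:**
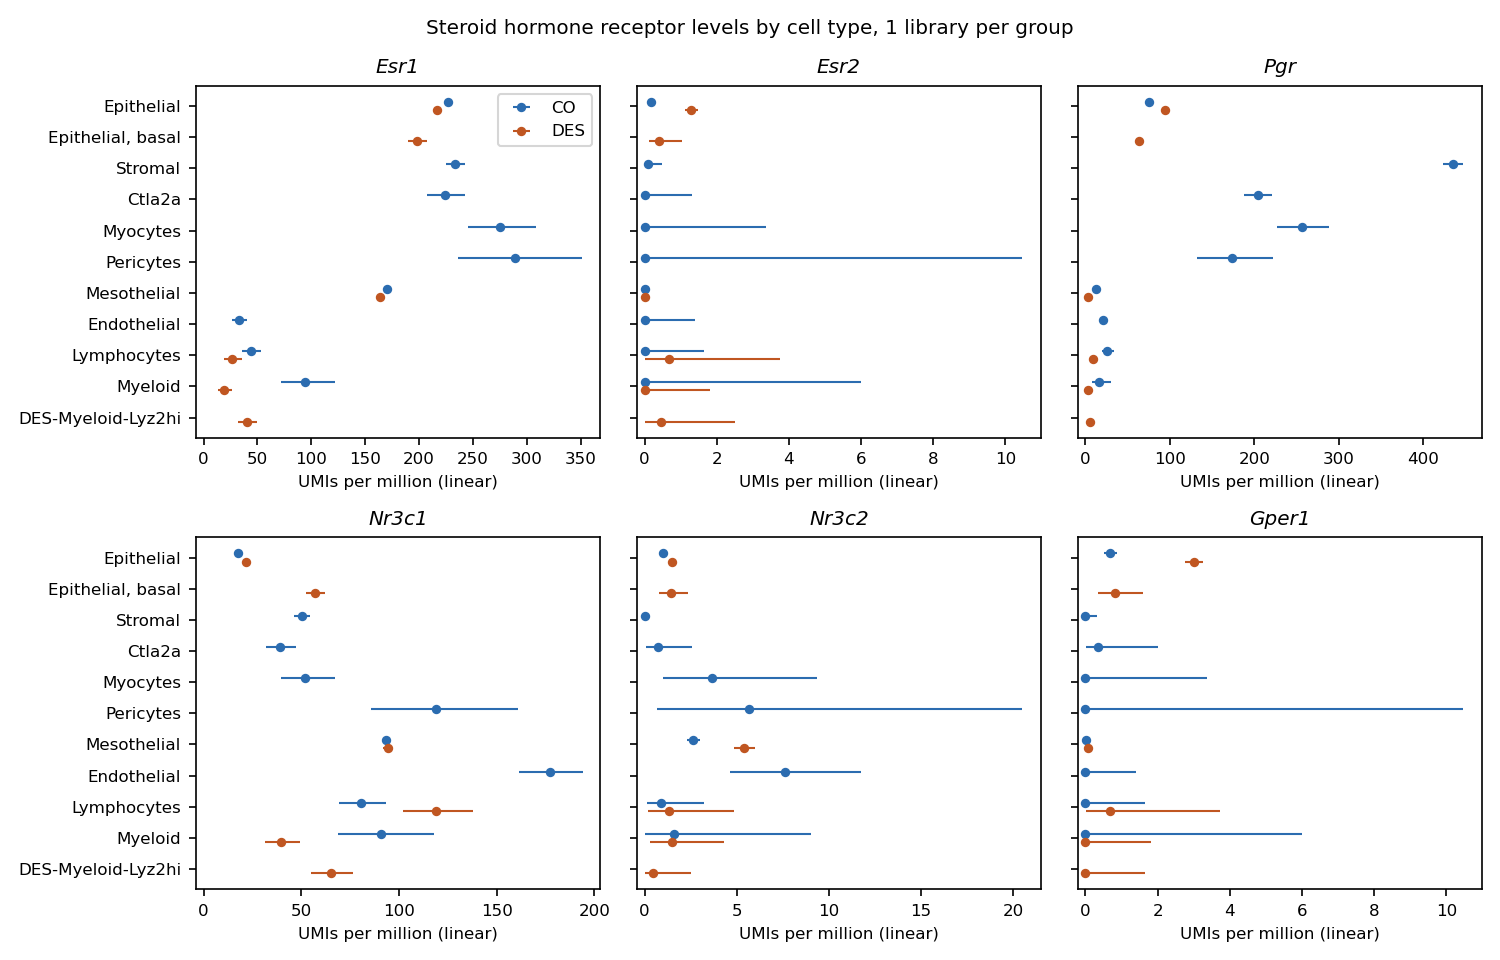
Level of each receptor by cell type in the CO and DES libraries, in CPM on linear axes, with exact Poisson 95% intervals (counting error only) for cell types of at least 50 cells. Pgr peaks in CO stromal cells at 435, Nr3c1 in CO endothelial cells at 177, and Esr2 and Gper1 reach 1.29 and 2.997 in DES epithelial cells.

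Likeness of the 4 members that reached 5 CPM in some cell type was described over the 14 library-by-cell-type groups of at least 50 cells, among genes with at least 20 CPM in some group, by Pearson correlation of log2(CPM + 1). The groups share their libraries and differ in depth, so these coefficients are descriptions. Esr1 was most like Rbms3 (r = 0.937), Emx2 (r = 0.930), a transcription factor of the developing reproductive tract, and Pard3 (r = 0.928). Pgr was most like Gm16485 (r = 0.971), Ctr9 (r = 0.928) and Prrx2 (r = 0.912). For Nr3c1 the genes given are Hip1 (r = 0.913) and Cds2 (r = 0.896), and for Nr3c2 they are Fzd4 (r = 0.877) and Pitpnm2 (r = 0.856).

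Gm16485 is annotated on chromosome 9 from 8971791 to 8975773, on the same strand as Pgr and starting 3180 bases after its annotated end. Its UMIs made up 12.1% of the UMIs of both genes in CO epithelial cells (825 UMIs), 12.9% in CO stromal cells (755 UMIs), 13.003% in CO myocytes and 12.3% in DES non-basal epithelial cells (2210 UMIs). The share was thus nearly level in these groups, while Pgr itself ranged from 75.9 to 435 CPM among them. Elsewhere it varied more, from 6.45% in CO lymphocytes (4 UMIs) to 23.5% in DES lymphocytes (4 UMIs). It was 19.7% in CO pericytes (15 UMIs) and 14.1% in DES basal cells (104 UMIs). Gm16485 was picked for its correlation with Pgr over cell types, so a level share is not separate from that choice. In whole sections Gm16485 was at 14.7 CPM in CO A, 5.17 CPM in CO B, 12.0 and 11.6 CPM in DES A and DES B.

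Within CO epithelium the receptors differed between luminal epithelium (LE, 2095 cells of 10 clusters) and glandular epithelium (GE, 417 cells of 4 clusters). Cells and clusters were grouped on their whole transcriptome, members included, so these values are descriptions. The 4 gland markers summed to 7937 CPM in GE and 72.4 CPM in LE. Pgr was at 80.6 CPM (78.5 to 82.8) in LE and 20.2 CPM (17.3 to 23.4) in GE, a ratio of 0.251 (0.214 to 0.291). Nr3c1 was lower in GE as well, at 8.15 CPM against 18.9 CPM (ratio 0.431, 0.334 to 0.547). Esr1 was nearly level, at 246 CPM in GE and 225 CPM in LE (ratio 1.09, 1.04 to 1.14). Gper1 had 13 UMIs in GE and 35 in LE, a ratio of 2.91 (1.41 to 5.64), and Nr3c2 had 1 UMI in GE and 78 in LE (ratio 0.101, 0.00251 to 0.577). Of 13960 genes with at least 20 UMIs in LE and GE together, 14.3% were at or below 1/2 of their LE level in GE, as were Pgr, Nr3c1 and Nr3c2, and 14.7% were at or above a 2-fold level, as was Gper1. Esr2 had 3 UMIs in GE and 9 in LE (ratio 2.61, 0.455 to 10.5), too few to be counted among those genes.

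Single clusters widened this range for Pgr. Among the 15 CO clusters Pgr was lowest in GE cluster 3 at 15.1 CPM and highest in cluster 12 at 166 CPM, a 10.98-fold range, with a median of 77.6 CPM. Cluster 12 (71 cells), which the authors propose as epithelial stem cells, had 2.06 times the LE level of Pgr (1.83 to 2.32), and 13.7% of 13653 genes reached 2-fold there, among them also Gper1 (5 UMIs, ratio 5.52, 1.69 to 14.2). LE cluster 11 was close to it at 153 CPM. Esr1 ranged from 181 CPM in LE cluster 5 to 358 CPM in GE cluster 13, the mature glands, a 1.97-fold range. The glandular clusters therefore held both the highest Esr1 level and, in cluster 3, the lowest Pgr level.

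The 16 DES clusters showed a 5.03-fold range of Pgr, from 42.5 CPM in cluster 14 to 214 CPM in cluster 11, with cluster 13 near the top at 207 CPM. The 4 GE clusters of CO held 15.1 to 38.2 CPM. DES cluster 14 (interval 34.7 to 51.5) lay above these levels, but inside the interval of GE cluster 13 (26.4 to 53.4). Esr1 was highest in cluster 11 too, at 308 CPM, and lowest in cluster 15 at 146 CPM. Nr3c1 varied from 13.2 to 22.4 CPM among DES clusters and from 6.42 to 27.0 CPM among CO clusters. DES cluster 5 (295 cells), named by the authors as the cancer cells, had 0.495 times the Pgr level of all DES non-basal cells (0.448 to 0.545), 0.249 times the Gper1 level (7 UMIs, 0.0997 to 0.517) and 2.17 times the Esr2 level (26 UMIs, 1.39 to 3.27). Across 15285 genes, 10.9% were at or below 1/2 in that cluster, as were Pgr and Gper1, and 5.35% at or above 2-fold, as was Esr2. Esr1 in cluster 5 was 0.952 times the level of all non-basal cells (0.908 to 0.997).

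**Figure D2:**
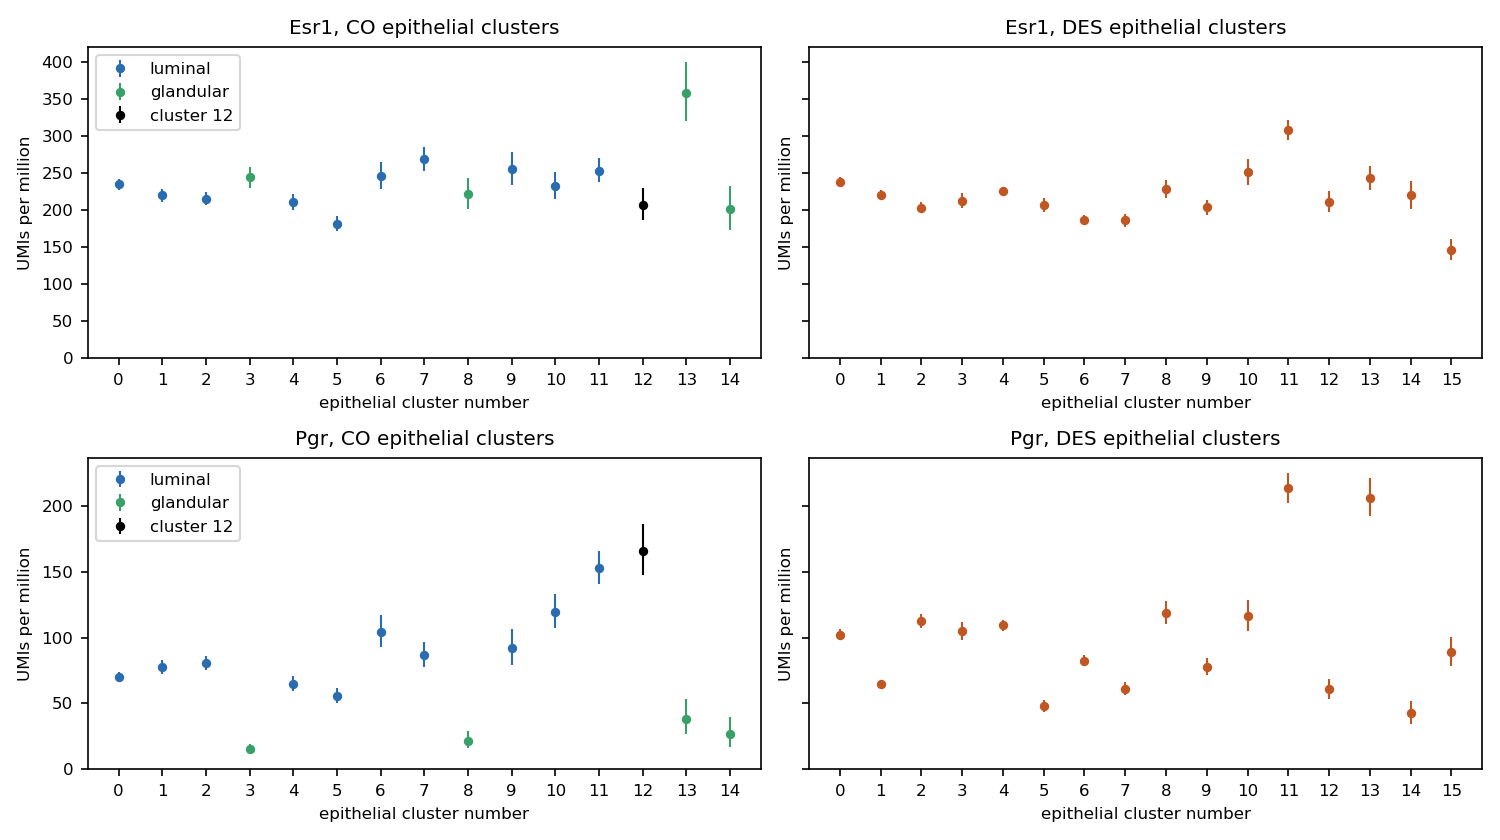
Esr1 (top) and Pgr (bottom) in the 15 CO and 16 DES epithelial clusters, in CPM with exact Poisson 95% intervals (counting error only). GE clusters 3, 8, 13 and 14 hold the 4 lowest CO Pgr levels, from 15.1 to 38.2, while cluster 13 holds the highest Esr1 level at 358.

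DES uteri also contained basal cells, a layer found in stratified epithelia such as the vagina and identified here by more than 1 UMI each of Krt14 and Trp63. The 483 basal cells carried 57.2 CPM of Nr3c1 (52.6 to 62.2), 2.97 times the 19.3 CPM of DES non-basal epithelium (2.71 to 3.25). Pgr was lower, at 63.8 CPM against 96.6 CPM (ratio 0.661, 0.609 to 0.715), and Esr1 was slightly lower at 198 CPM (ratio 0.913, 0.872 to 0.955). Gper1 (8 UMIs, ratio 0.256, 0.110 to 0.508) and Esr2 (4 UMIs, ratio 0.300, 0.0809 to 0.778) were lower too. Of 15393 genes, 11.9% were at or above 2-fold in basal cells, as was Nr3c1 alone among the members, and 15.7% were at or below 1/2, as were Gper1 and Esr2.

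The DES library was then set beside the CO library in non-basal epithelial cells (4604 DES and 2583 CO cells), with median depths of 24636.5 and 23458 UMIs. With 1 library per group this compares those libraries, without a replicate check and without a test. Esr1 was at 217 CPM in DES and 227 CPM in CO, a ratio of 0.957 (0.940 to 0.9748). Pgr was at 96.6 CPM in DES and 75.9 CPM in CO, a ratio of 1.27 (1.24 to 1.31). Nr3c2 was at 1.53 CPM and 1.00 CPM, a ratio of 1.53 (1.18 to 1.995). Nr3c1 was at 19.3 CPM and 17.7 CPM, a ratio of 1.09 (1.02 to 1.16) that turned to 0.820 when epithelial cells were chosen by Epcam, Krt18 and Cdh1 instead of by the authors' label. None of these 4 receptors differed 2-fold between the libraries.

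The larger differences were in the sparse estrogen receptors. Esr2 had 221 UMIs in DES (1.35 CPM) and 13 in CO (0.165 CPM), a ratio of 8.18 (4.69 to 15.6). Gper1 had 518 UMIs in DES (3.16 CPM) and 53 in CO (0.673 CPM), a ratio of 4.70 (3.54 to 6.37). These were the members past 2-fold, beside 17.3% of 16038 genes at or above 2-fold higher in DES and 12.4% at or below 1/2. Cells with an Esr2 UMI made up 4.32% of DES and 0.503% of CO cells, and cells with a Gper1 UMI 9.75% and 1.97%. In lymphocytes 1 DES cell had an Esr2 UMI, 1 a Gper1 UMI (0.418% each) and no CO cell had either. Over the 16 DES clusters Esr2 ran from 0.263 CPM in cluster 13 (1 UMI) to 3.06 CPM in cluster 10, with a median of 1.16 CPM, and Gper1 from 0.413 CPM in cluster 14 (1 UMI) to 5.51 CPM in cluster 8, with a median of 3.30 CPM. Of 15 CO clusters, 6 held no Esr2 UMI, which allows up to 0.272 to 3.31 CPM by their depth, and 4 held no Gper1 UMI, which allows up to 0.797 to 1.525 CPM. The empty CO clusters for Esr2 are thus in part too shallow to show the DES median. How the difference is spread over the 4 pooled DES mice cannot be read from 1 library.

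Against CO LE alone, DES non-basal cells had 1.198 times the Pgr level (1.16 to 1.24), and against CO GE 4.78 times (4.12 to 5.58). For Nr3c1, Gper1 and Esr1 the ratios were 1.02, 6.18 and 0.965 against LE. Against GE they were 2.36 (1.87 to 3.04), 2.12 (1.23 to 4.01) and 0.884 (0.847 to 0.924). Esr2 and Nr3c2 had 3 and 1 UMIs in GE. Shares of cells were compared after each cell was thinned to 3000 UMIs, which left out 21 CO and 49 DES cells. Thinned, 17.8% of CO cells (16.3% to 19.3%, exact Clopper-Pearson interval) and 23.7% of DES cells (22.5% to 24.97%) held a Pgr UMI. For Esr1 these shares were 49.9% (48.0% to 51.9%) and 46.6% (45.1% to 48.0%), for Nr3c1 5.82% and 5.64%, and for Nr3c2 0.195% and 0.395%. Without thinning the Pgr shares were 67.8% and 74.8% and the Esr1 shares 97.3% and 95.5%. Lymphocytes, thinned likewise, gave 14.2% (CO) and 5.16% (DES) for Esr1 and 6.77% and 3.29% for Pgr, at median depths of 4033 and 5599 UMIs, and the shares in epithelium were above these. The cells labelled Lymphocytes carried more myeloid than lymphocyte markers, at 3328 and 1531 CPM in CO and 8814 and 1369 CPM in DES.

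Detection of Esr1 and Pgr in the same thinned cell was described by the share with a Pgr UMI. In CO epithelium 18.3% of cells with an Esr1 UMI and 17.3% of cells without one held Pgr, and in DES non-basal epithelium the shares were 24.2% and 23.3%. CO stromal cells gave 72.5% and 67.0%. The shares were further apart in CO GE, at 8.70% and 2.88% of 415 cells, and in unlabelled CO cells, a mixture of types, at 17.7% and 9.58%. At 3000 UMIs a cell without an Esr1 UMI may still express the gene, and this is a description of detection.

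In mesothelial cells Pgr was at 0.258 times the CO level in DES (0.221 to 0.300), beside 6.59% of 15730 genes at or below 1/2. Thinned shares with a Pgr UMI were 3.74% of CO and 1.08% of DES mesothelial cells, both under the shares in lymphocytes of the same library, and no change in expression is read from the ratio. Lymphocytes themselves had a Pgr ratio of 0.338 (0.170 to 0.625) and an Esr1 ratio of 0.594 (0.399 to 0.869). Nr3c2 was at 2.05 times the CO level in DES mesothelial cells (1.72 to 2.43, 350 and 220 UMIs), beside 6.58% of genes at or above 2-fold. Esr1 (0.958, 0.934 to 0.983) and Nr3c1 (1.01, 0.978 to 1.046) were nearly level.

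The 4 Visium sections gave the replicated comparison of DES and CO. Visium spots hold several cells, so that fewer cells of a type and less RNA per cell cannot be told apart. Counts were summed over all spots of a section, over the 25% of spots richest in 4 epithelial markers (epithelium-rich), the 25% richest in 5 muscle markers (muscle-rich), with spots in both sets or in the stromal cluster left out, and over the spots of 1 cluster per section that the authors call stromal. Tests were edgeR quasi-likelihood tests with p adjusted over all genes tested. With 2 sections against 2 an exact test over sections cannot go below p = 0.333 (two-sided), so the p-values lean on the spread shared across genes.

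In whole sections the differences of Esr1, Nr3c1 and Nr3c2 between DES and CO did not pass the adjusted threshold. Esr1 was at 267 CPM in CO A, 261 CPM in CO B, 230.1 and 232 CPM in DES A and DES B, a log2 difference of -0.40 ± 0.16 (SE, adjusted p = 0.215). Under the alternatives this difference ran from -0.46 to -0.19. Nr3c1 was at 16.3, 22.5, 37.4 and 35.7 CPM in the same order (log2 difference 0.71 ± 0.21, adjusted p = 0.126). Nr3c2 was at 0.880, 1.45, 3.84 and 3.54 CPM (log2 difference 1.46 ± 0.44, adjusted p = 0.130). Its values rest on 11 and 16 UMIs in CO and 35 in each DES section. The Nr3c1 difference passed in 1 of 8 alternatives, without CO B (0.93), which leaves no replicate in CO. Its adjusted p was up to 0.603 in the others. Markers of other cells moved with the receptors. In CO A, CO B, DES A and DES B the 5 muscle markers summed to 13345, 14168, 3077 and 3458 CPM, the 5 stromal markers to 2452, 2453, 1139.95 and 762 CPM, the 3 basal markers to 3.36, 159.7, 9526 and 5644 CPM and the 4 myeloid markers to 199, 453, 1685 and 873 CPM, with every marker of these lists detected in each section. Their part in these differences was not tested.

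Pgr in whole sections showed a gap between the CO sections. The study describes a large fold in the tissue of CO B and a limited resolution of clusters in DES B. It was at 84.2 CPM in CO A, 37.0 CPM in CO B, 78.5 and 74.6 CPM in DES A and DES B, so that CO A lay above and CO B below both DES sections. The CO sections differed 2.28-fold and the DES sections 1.053-fold. The log2 difference was 0.12 ± 0.41 (adjusted p = 0.900). It passed without CO A (0.86) but not without CO B (-0.37), in fits that leave no replicate in CO. None of the 4 members tested passed in edgeR or in DESeq2, beside 5.30% of all 14098 genes in edgeR and 12.7% in DESeq2, and 2 of them, Nr3c1 and Nr3c2, had an unadjusted p under 0.05, as had 24.4% of all genes. Esr2 (0, 2, 3 and 4 UMIs) and Gper1 (6, 29, 6 and 3 UMIs in CO A, CO B, DES A and DES B) fell under the filter on low counts. Gper1, higher in the DES library of single cells, was thus highest in a CO section.

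Of the regions compared between DES and CO, epithelium-rich spots gave the lowest adjusted p for Pgr in edgeR. Pgr was at 34.8 CPM in CO A, 31.2 CPM in CO B, 82.0 and 76.6 CPM in DES A and DES B, and the 2 CO sections were alike here. The means were 33.0 ± 2.59 and 79.3 ± 3.87 CPM (SD, n = 2). The log2 difference was 0.96 ± 0.19 (interval 0.48 to 1.44), with an adjusted p of 0.0554, just over the threshold. It passed in 5 of 10 alternatives. In DESeq2 the adjusted p was 0.0395, with 1213 of 12041 genes passing. In the top 15% of spots it was 0.0265 (log2 difference 1.34), with 714 of 11142 genes passing. With library totals in place of TMM factors it was 0.0266 (1.26), with 1035 of 12041 genes passing. The others were the fits without CO A (1.07) and without CO B (0.87), which leave no replicate in CO. In the same spots the 5 stromal markers, all detected, summed to 1217 and 904 CPM in CO and 583 and 388 CPM in DES, the 5 muscle markers to 375 and 311 CPM in CO and 566 and 785 CPM in DES, and basal and myeloid markers were higher in DES, with the values given beside Nr3c1. The part of these cells in the Pgr difference was not tested. Over all alternatives the adjusted p ran from 0.0265 to 0.414.

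Nr3c1 in epithelium-rich spots was at 11.5 CPM in CO A, 15.002 CPM in CO B, 37.8 and 32.9 CPM in DES A and DES B (log2 difference 1.12 ± 0.24, adjusted p = 0.0646). It passed in 2 of 10 alternatives. These were the fit without CO B (1.30), which leaves no replicate in CO, and library totals (1.42, adjusted p = 0.0389). With library totals 1035 of 12041 genes passed. Over the alternatives the adjusted p ran up to 0.436. The basal markers Krt14, Krt5 and Trp63 moved with it, at 5.00 and 168 CPM in these spots of CO A and CO B and 9137 and 5988 CPM in DES A and DES B, with all 3 detected in these spots of each section. Myeloid markers moved with it too, at 118 and 209.8 CPM in CO and 1446 and 601 CPM in DES. The part of these cells in the Nr3c1 difference was not tested.

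Esr1 in epithelium-rich spots was at 275 CPM in CO A, 329 CPM in CO B, 233 and 228 CPM in DES A and DES B (log2 difference -0.69 ± 0.18, adjusted p = 0.0955). It passed in 1 of 10 alternatives, without CO A (-0.79), which leaves no replicate in CO. The adjusted p was up to 0.605 in the others. Nr3c2 was at 0.626, 1.62, 4.60 and 3.73 CPM (log2 difference 1.59 ± 0.60, adjusted p = 0.184), from 3, 7, 13 and 11 UMIs. None of the 4 members tested passed in edgeR, beside 5.38% of 12041 genes that did. All 4 had an unadjusted p under 0.05, as had 25.4% of all genes, and 1, Pgr, passed in DESeq2, as did 10.1% of all genes. Gper1 had 16 UMIs in CO B and 1 to 3 in each of the other sections.

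The scaling bears on these sizes. With library totals in place of TMM factors the median log2 difference of all genes was 0.28 in epithelium-rich spots and 0.20 in whole sections, and the share of higher calls in epithelium-rich spots moved from 61.3% to 81.4%. With library totals Esr1 was at -0.39 in epithelium-rich spots, below that median, and Pgr (1.26), Nr3c1 (1.42) and Nr3c2 (1.88) were above it.

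**Figure D3:**
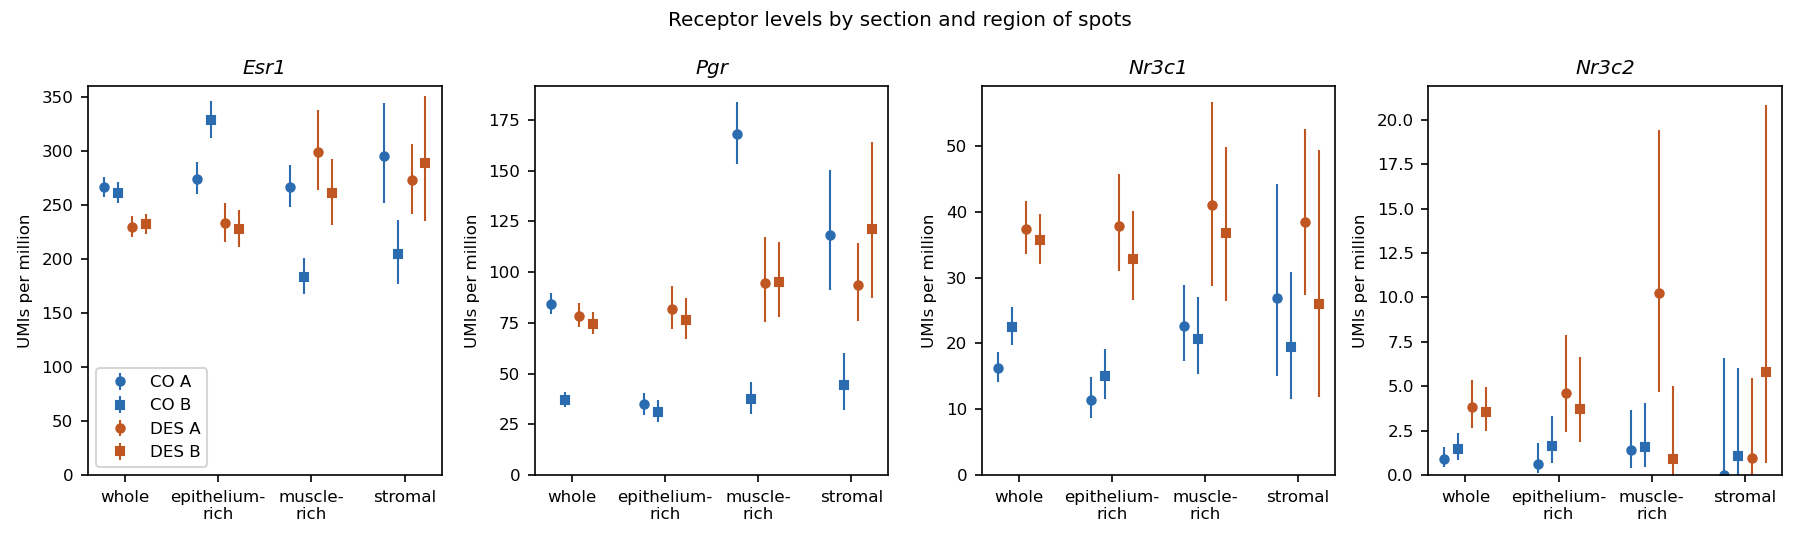
Esr1, Pgr, Nr3c1 and Nr3c2 in CPM in the 2 CO and 2 DES sections, over whole sections and over epithelium-rich, muscle-rich and stromal spots, with exact Poisson 95% intervals (counting error only). Pgr in epithelium-rich spots was 34.8 and 31.2 in CO and 82.0 and 76.6 in DES, while in muscle-rich spots CO A (168) and CO B (37.3) stood on either side of the DES sections.

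**Figure D4:**
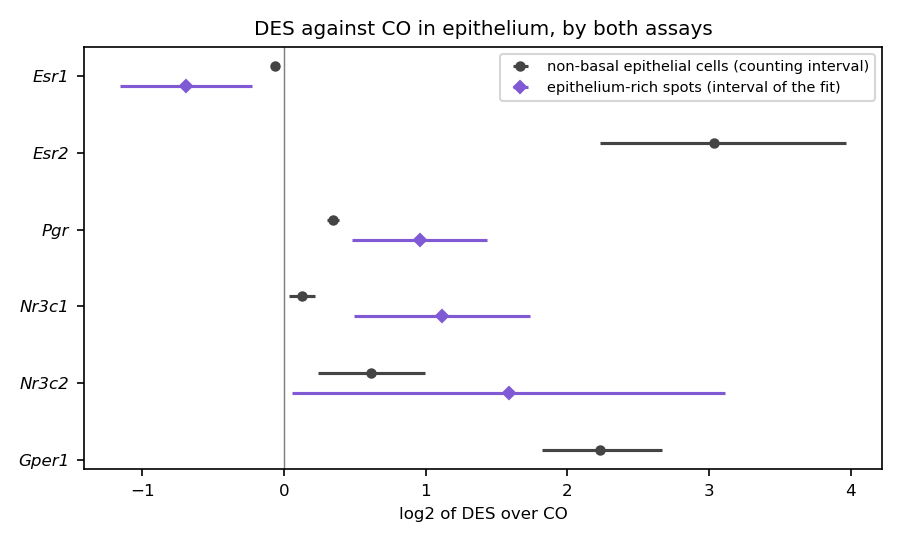
Log2 of DES over CO for each receptor in non-basal epithelial cells (circles, 1 library per group, 95% counting interval) and in epithelium-rich spots (diamonds, 2 sections per group, 95% interval of the edgeR fit). Pgr, Nr3c1 and Nr3c2 lie above 0 and Esr1 below it in both assays, with ratios of 1.27, 1.09, 1.53 and 0.957 in cells, but in cells chosen by Epcam, Krt18 and Cdh1, not drawn, the ratio was 0.820 for Nr3c1 and 0.990 (0.976 to 1.004) for Esr1. Esr2 and Gper1 have values from cells only.

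In muscle-rich spots Pgr differed more between the CO sections than between the groups. It was at 168 CPM in CO A, 37.3 CPM in CO B, 94.4 and 95.1 CPM in DES A and DES B, a 4.50-fold gap between the CO sections and a 1.01-fold gap between the DES sections. The log2 difference between DES and CO was -0.36 ± 0.57 (adjusted p = 0.835). It passed in opposite directions without CO A (1.07) and without CO B (-1.07), in fits that leave no replicate in CO. Esr1 followed the same order within CO, at 267 and 184 CPM, with 299 and 261 CPM in DES (log2 difference 0.06 ± 0.26, adjusted p = 0.949). Nr3c1 was at 22.6, 20.6, 41.0 and 36.8 CPM, higher in both DES sections (log2 difference 0.59 ± 0.27, adjusted p = 0.331). In these spots of CO A, CO B, DES A and DES B the muscle markers summed to 46909, 46113, 22743 and 19306 CPM and the myeloid markers to 207, 468, 661 and 734 CPM. Basal markers were at 1.43 and 9.12 CPM in CO (2 of 3 detected) and 2285 and 2314 CPM in DES, and the 3 endothelial markers at 52.7 and 53.9 CPM in CO and 149 and 121 CPM in DES. The part of these cells was not tested. None of the 3 members tested passed in edgeR or DESeq2 or had an unadjusted p under 0.05, beside 3.30% of 10888 genes that passed in edgeR, 3.71% in DESeq2 and 16.8% with such a p.

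In stromal spots none of the 3 members tested passed in edgeR or DESeq2 or had an unadjusted p under 0.05, beside 1.47% of 8914 genes that passed in edgeR, 2.17% in DESeq2 and 13.4% with such a p. Pgr was at 118 CPM in CO A, 44.4 CPM in CO B, 93.6 and 121 CPM in DES A and DES B (log2 difference 0.38 ± 0.47, interval -0.70 to 1.46, adjusted p = 0.828). It was -0.20 without CO B and 1.16 without CO A. Esr1 was at 295, 205, 273 and 289 CPM (log2 difference 0.13 ± 0.32, adjusted p = 0.926), and Nr3c1 at 26.9, 19.5, 38.4 and 26.0 CPM (log2 difference 0.49 ± 0.41, adjusted p = 0.705). For all 3 receptors CO B was the lowest of the 4 sections. The cluster named stromal had the highest sum of stromal markers in CO A only. In CO B cluster 3 (222 spots) held 5585 CPM and cluster 7 (146 spots) 4895 CPM, against 4056 CPM in the cluster named stromal. Those clusters also held more muscle markers, at 21295 and 3927 CPM against 700.2 CPM. In DES A cluster 9 (9 spots) held 4791 against 2889.6 CPM and cluster 7 (80 spots) 2987 CPM, and in DES B cluster 9 (47 spots) held 5276 against 1923 CPM. Muscle markers in clusters 9 and 7 of DES A were at 4791 and 11432 CPM, against 2705 CPM in its cluster named stromal. DES stromal spots also held 7058 and 1998 CPM of basal markers, against 0 and 90.0 CPM in CO, and 2705 and 8369 CPM of muscle markers, against 888 and 700.2 CPM. The part of these cells was not tested.

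Within sections, the receptors were compared between epithelium-rich and muscle-rich spots, with the section as a factor in the fit. In CO, Pgr was lower in epithelium-rich spots (log2 difference -1.503 ± 0.36, adjusted p = 0.00470) and so was Nr3c1 (-0.88 ± 0.25, adjusted p = 0.0114). These 2 of the 4 members tested passed, where 52.4% of 12733 genes did. The Pgr call rested on CO A, since without it the difference was -0.39 and did not pass, while without CO B it was -2.35 and passed. With a CO section left out, CO has no replicate and the spread in the fit comes from the DES sections alone. Nr3c1 was at -0.59 without CO A and did not pass. It also missed the threshold in DESeq2 (adjusted p = 0.0902) and in the top 15% of spots (adjusted p = 0.0803). Esr1 did not pass (0.28 ± 0.20, adjusted p = 0.278), but without CO A it was higher in epithelium-rich spots (0.71) and passed, again with no replicate in CO. Gper1 had 3 and 16 UMIs in the epithelium-rich and 0 in the muscle-rich spots of CO A and CO B, and fell under the filter on low counts. It was tested only with no filter (edgeR, adjusted p = 0.0470, where 7241 of 18799 genes passed) or with a DES section left out. Most of these UMIs lay in CO B, and no result is read from them.

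In DES none of the 4 members passed in edgeR or DESeq2 or had an unadjusted p under 0.05, where 33.3% of genes passed in edgeR, 21.7% in DESeq2 and 43.2% had such a p. Pgr differed by -0.42 ± 0.35 (adjusted p = 0.393), Esr1 by -0.44 ± 0.21 (adjusted p = 0.128) and Nr3c1 by -0.30 ± 0.25 (adjusted p = 0.391). When either CO section was left out of the joint fit, Esr1 was at -0.49 and Pgr at -0.47 both times. Both receptors passed in those fits, which leave no replicate in CO. The difference between DES and CO in this contrast was 1.08 ± 0.50 for Pgr (adjusted p = 0.242), -0.71 ± 0.29 for Esr1 (adjusted p = 0.179) and 0.58 ± 0.35 for Nr3c1 (adjusted p = 0.385), with 7.14% of genes passing. None of the 4 members passed in edgeR, nor any of the 3 to which DESeq2 gave an adjusted p, and Esr1 alone had an unadjusted p under 0.05, beside 4.69% of genes that passed in DESeq2 and 21.3% with such a p. The Pgr difference passed without CO B (1.88) but not without CO A (-0.08), while Esr1 passed without CO A (-1.20). These fits leave no replicate in CO. Pgr also passed with no filter (1.09, adjusted p = 0.0109), where 1600 of 18799 genes passed.

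Quartiles of spots ranked by epithelial share traced the same levels in steps. In CO A Pgr went from 165 CPM in the quartile poorest in epithelium through 139.6 and 60.05 CPM to 35.0 CPM in the richest, and in CO B from 40.7 through 41.9 and 39.99 to 31.1 CPM. DES A held 81.0, 92.4, 67.7 and 80.6 CPM and DES B 105, 75.7, 63.0 and 76.7 CPM. In the quartile richest in epithelium both CO sections lay below both DES sections. In the next quartile the interval of CO A (51.9 to 69.1 CPM) held both DES values. For Esr1, CO B went from 182 to 328 CPM and CO A from 255 to 275 CPM, while DES A went from 281 to 234 CPM and DES B from 256 to 227 CPM. Nr3c1 in the richest quartile was 11.7 and 14.9 CPM in CO and 38.2 and 33.5 CPM in DES.

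**Figure D5:**
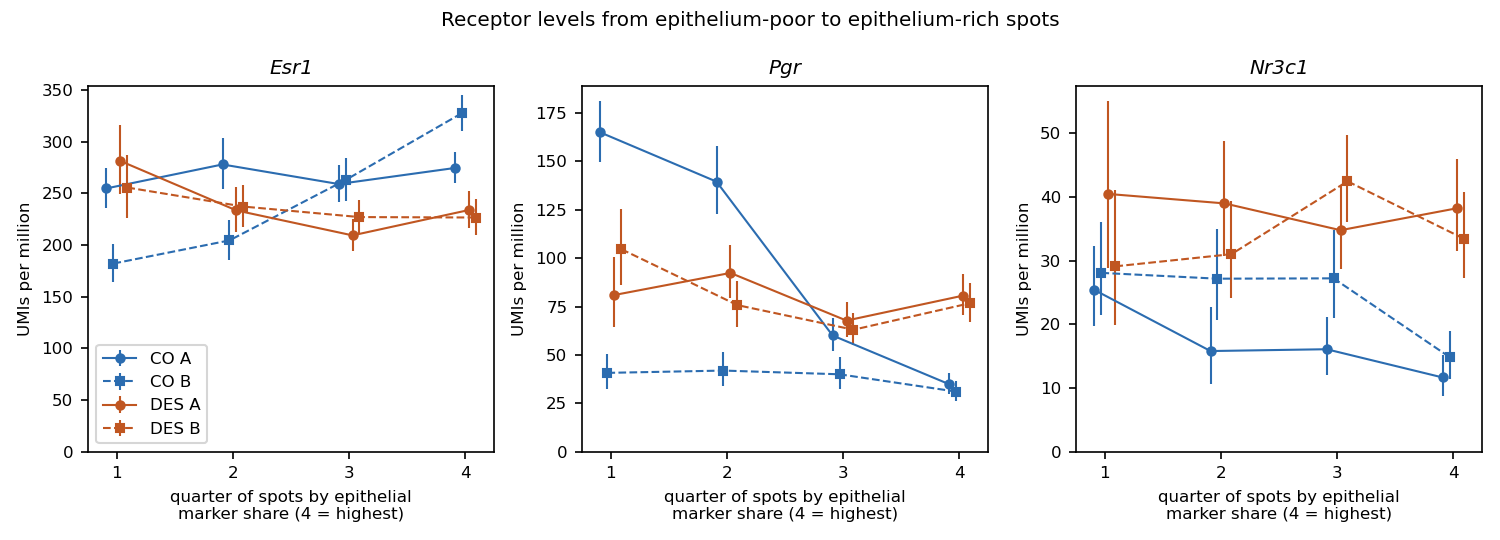
Esr1, Pgr and Nr3c1 in CPM over the 4 quartiles of each section's spots, ordered by their share of epithelial marker UMIs, with exact Poisson 95% intervals (counting error only). Pgr in CO A falls from 165 to 35.0 while CO B stays between 31.1 and 41.9, and both DES sections lie between 63.0 and 105.

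By the authors' spot clusters, of which only those with at least 40 spots are given, Pgr ran from 26.9 to 200.01 CPM over 10 clusters of CO A, from 22.8 to 91.3 CPM (8 UMIs, 39.4 to 179.9 CPM) over 9 of CO B, from 36.0 to 106 CPM over 8 of DES A and from 51.0 to 136 CPM over 10 of DES B. Esr1 ran from 241 to 400.0 CPM in CO A, from 159.8 to 339 CPM in CO B, from 164 to 324 CPM in DES A and from 175 to 352 CPM in DES B. In CO B the highest Esr1 level lay in cluster 2, whose spots held 2699 CPM of epithelial markers, and in DES A in cluster 6, whose spots held 29583 CPM of muscle markers. The highest levels in the other 2 sections rest on few UMIs in spots of mixed markers, with 28 Esr1 UMIs (266 to 578 CPM) and 14 Pgr UMIs in cluster 10 of CO A and 23 Esr1 UMIs (223 to 528 CPM) in cluster 6 of DES B. The highest Nr3c2 level, 30.0 CPM in cluster 7 of DES A (80 spots), rests on 6 UMIs (11.02 to 65.3 CPM) in spots of mixed markers, with 11432 CPM of muscle, 2987 CPM of stromal, 1351 CPM of myeloid, 1346 CPM of basal and 430 CPM of endothelial markers.

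Other genes of steroid receptor signalling were counted from 6 lists. Among all genes tested, 2.67% were higher and 2.63% lower in DES in whole sections, and 3.30% and 2.08% in epithelium-rich spots, all in edgeR. In whole sections DESeq2 called 12.7% of genes (5.83% higher and 6.87% lower), and 24.4% had an unadjusted p under 0.05, the shares against which the counts below by those rules stand. Of 22 coregulators all were tested in whole sections, where 3 had an unadjusted p under 0.05, 2 passed in DESeq2 (Ncoa7 and Nrip1) and 1 was lower in DES in edgeR, Ncoa7, an estrogen receptor coactivator, which fell from 135 and 69.4 CPM in CO A and CO B to 11.4 and 10.7 CPM in DES A and DES B (log2 difference -3.42 ± 0.39, adjusted p = 0.0241). In non-basal epithelial cells it was at 329 CPM in CO and 41.1 CPM in DES. Nrip1, a corepressor and estrogen target, was at 56.5, 45.3, 101 and 119.5 CPM (log2 difference 0.91 ± 0.22, adjusted p = 0.0858) and at 255 and 379.6 CPM in CO and DES cells. The median log2 difference of the list was -0.000562 beside -0.00518 over all genes. None of the 14 receptor chaperones passed in edgeR, with a list median of 0.08, while 2 had an unadjusted p under 0.05 and 1, Dnajb1, passed in DESeq2. The smallest p among them was that of Dnajb1, higher in DES sections (0.90 ± 0.19, adjusted p = 0.0663) but at 247 CPM in CO and 44.3 CPM in DES cells.

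Of 12 estrogen response genes, 1 was higher and 1 lower in DES in whole sections in edgeR, while 3 passed in DESeq2 and 3 had an unadjusted p under 0.05. Cxcl15 rose from 0.400 and 0.363 CPM in CO to 12.0 and 27.8 CPM in DES (log2 difference 5.47 ± 0.63, adjusted p = 0.0241), and C3, a complement gene induced by estrogen in uterine epithelium, fell from 4657 and 4589 CPM to 461 and 685 CPM (-3.21 ± 0.30, adjusted p = 0.0210). In epithelium-rich spots Greb1, an ERα target and cofactor, passed as well and was lower in DES (-1.76 ± 0.25, adjusted p = 0.0286), at 92.8 and 120.0 CPM in CO and 46.0 and 31.5 CPM in DES. Greb1 was at 60.1 CPM in CO and 16.7 CPM in DES non-basal cells. The medians of this list were 0.08 in whole sections and -0.13 in epithelium-rich spots. In muscle-rich spots 3 of 11 genes were higher and 0 lower in DES in edgeR, where 3.30% of all genes passed. In stromal spots 1 of 11 was lower, where 1.47% passed. In the difference of epithelium-rich against muscle-rich spots between DES and CO, 5 of 12 were lower and 0 higher, where 7.14% passed. The part of the cell mixture of these spots was not tested.

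Of 15 progesterone response genes 10 could be tested in whole sections, and 1 passed in edgeR, 3 in DESeq2 (all lower in DES), with an unadjusted p under 0.05 for 4. Hand2, a stromal transcription factor downstream of Pgr, fell from 24.2 and 28.7 CPM to 6.14 and 4.35 CPM (log2 difference -2.54 ± 0.25, adjusted p = 0.0212). Stromal markers moved with it, from 2452 and 2453 CPM in CO to 1139.95 and 762 CPM in DES, and in stromal spots none of the 6 genes of this list that were tested passed in edgeR, while 3 had an unadjusted p under 0.05 and 1 passed in DESeq2, beside 13.4% and 2.17% of all genes there. The median of the list was -0.68. Among 17 corticosteroid response genes, 15 were tested in whole sections and 2 passed in edgeR, both higher in DES. In DESeq2 5 passed, 2 higher and 3 lower, and 7 had an unadjusted p under 0.05. Scnn1a, a subunit of the epithelial sodium channel, rose from 0.800 and 2.08 CPM to 37.95 and 49.5 CPM (4.73 ± 0.47, adjusted p = 0.0212), and the kinase Sgk1 from 62.9 and 74.9 CPM to 239 and 258 CPM (1.65 ± 0.18, adjusted p = 0.0219). DES non-basal cells had 3.73 times (3.08 to 4.54) the CO level of Scnn1a and 2.34 times (2.24 to 2.45) that of Sgk1. Their levels in those DES cells were 5.77 and 70.7 CPM. Basal and myeloid markers moved with both genes in whole sections, and the part of such cells was not tested. The median of that list was -0.57, opposite in sign to both of its calls. Of 10 orphan and membrane receptors 8 were tested and none passed in edgeR, with a median of 0.23, while 2, Esrrg and Paqr5, passed in DESeq2 and 2 had an unadjusted p under 0.05.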

How the data were processed

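The single-cell file holds whole UMI counts per gene and cell, and each section file whole UMI counts per gene and spot, as deposited by the authors without normalization. Per the labels and the methods of the study, reads were demultiplexed with bcl2fastq 2.20.0.422, counted on mm10 with Cell Ranger 3.0.1 (cells) and Space Ranger 1.2.2 (sections), and potential doublets were removed with scran. Whether the deposited 48699 cells are those left is not shown, and no doublet caller was run here. Cell types, epithelial clusters and 10 spot clusters per section were taken from the authors' annotation; 350 annotated cells had no counts and were left out. Cells were dissociated with trypsin.

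UMIs were summed per group and expressed per 1000000 UMIs (CPM). DES and CO cells were compared as ratios with exact conditional 95% intervals, without a test, since each group is 1 library. Section sums were tested with edgeR 4.0.16 (R 4.3.3) by quasi-likelihood after TMM scaling and a filter on low counts, with Benjamini-Hochberg adjustment over all genes tested and a threshold of 0.05. DESeq2 1.42.0 was an alternative. Epithelium-rich and muscle-rich spots were the top 25% by share of marker UMIs. Shares of cells were taken after thinning to 3000 UMIs. The scripts were tested on simulated data.

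All 6 receptors were named, and of other genes the 3 most correlated with a receptor (some of which are not reported here) and up to 4 of each pathway list with the smallest p in whole sections. The receptors, lists and tests were chosen with earlier results of these data known. Leaving out shared barcodes and using library totals without TMM were alternatives chosen after seeing the data. Fold changes or p-values of the authors were not used.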

Additional observations from a re-analysis of the deposited data

Results flagged for a closer look

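Cells that carry no cell type label took no part in the comparisons of levels by cell type, although they were described for detection of Esr1 and Pgr together and could enter the alternative that chose cells by Epcam, Krt18 and Cdh1, and all 6 receptors had UMIs in them above the level that a count of 0 allows. In the 20134 unlabelled CO cells Esr1 was at 156 CPM, Pgr at 62.4 CPM, Nr3c1 at 41.7 CPM, Nr3c2 at 1.34 CPM, Gper1 at 0.295 CPM and Esr2 at 0.0648 CPM. In the 6611 unlabelled DES cells Esr1 was at 155 CPM, Pgr at 48.3 CPM, Nr3c1 at 34.6 CPM, Nr3c2 at 2.27 CPM, Gper1 at 1.11 CPM and Esr2 at 0.732 CPM. Median depths were 4137.5 UMIs in the CO and 2178 UMIs in the DES cells. No cell type was assigned to them here.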

How the results depend on the processing

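No paired analysis was possible because the labels give the sections letters that mark no shared animal, litter or batch, and each library of cells is alone in its group. Counts of genes past the threshold moved by over 1.5 times in several settings. Whole sections gave 747 genes and 1791 in DESeq2. Epithelium-rich spots gave 648 genes, 1213 in DESeq2, 1 with no filter and 1035 with library totals (843 higher and 192 lower, against 397 and 251). Muscle-rich spots gave 359 genes, 1241 with no filter and 97 in the top 15% of spots, and stromal spots 131 and 714 with no filter. The contrast of epithelium-rich with muscle-rich spots in DES gave 4236 genes and 2765 in DESeq2, and its difference between DES and CO 909 genes, 528 in DESeq2, 1600 with no filter and 435 in the top 15%. With library totals, whole sections had 522 higher and 263 lower calls (376 and 371 with TMM), muscle-rich spots 367 and 82 (229 and 130) and the DES contrast 2888 and 1891 (2086 and 2150). Leaving out 1 section at a time, with the lone section of a group assumed to vary like the others, gave 3 to 2819 genes in whole sections, 1 to 1864 in epithelium-rich, 62 to 1263 in muscle-rich and 40 to 357 in stromal spots, 2499 to 5561 in the DES contrast and 560 to 2090 in the difference. The cause was not tested.

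Of the receptors' log2 differences under all alternatives, 206 kept their direction and side of the threshold, 19 came to pass, 4 no longer passed and 13 reversed. Leaving out 1 section at a time, Pgr ran from -0.37 (without CO B) to 0.86 (without CO A) in whole sections, from -0.20 (CO B) to 1.16 (CO A) in stromal spots, from -1.07 (CO B) to 1.07 (CO A) in muscle-rich spots and from -0.0839 (CO A) to 1.88 (CO B) in the difference. Esr1 ran from -0.18 (CO B) to 0.34 (CO A) in muscle-rich spots, with -0.01 without DES A, from -0.11 (CO B) to 0.37 (CO A) in stromal spots, with -0.01 without DES B, and from -0.0424 (CO B) to 0.71 (CO A) in the CO contrast, and it was -0.0585 in muscle-rich spots at the top 40%. Nr3c2 ran from -0.66 (DES B) to 2.50 (DES A) in the difference, with -0.37 without CO A, and from -1.30 (DES B) to 1.86 (DES A) in the DES contrast.

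In single cells the Esr1 ratio was 0.990 in cells with Epcam, Krt18 and Cdh1, 0.978 without the 20 most abundant genes and 0.918 as a mean over cells. The Nr3c1 ratio was 1.23 with basal cells and 0.820 in cells with Epcam, Krt18 and Cdh1. At 5000 UMIs per cell the CO and DES shares were 66.9% and 63.0% for Esr1, 27.8% and 34.0% for Pgr and 8.11% and 8.27% for Nr3c1, with 0.667% for Nr3c2 in DES. Without thinning they were 97.3% and 95.5% for Esr1, 67.8% and 74.8% for Pgr, 36.4% and 40.5% for Nr3c1 and 2.94% and 5.08% for Nr3c2. Depth limits Esr2, Gper1 and Nr3c2 most, and intervals cover counting error only.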
